A study of Flaveria sonorensis and Flaveria ramosissima with 8 samples.

Results

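The rows described here are 73 rows of a leaf transcript table that were measured in both of its *Flaveria* species and were far more abundant in *F. ramosissima* than in *F. sonorensis*. They were chosen by their own values. A row was taken when it was above 0 in all 8 libraries, averaged at least 100 TPM over the 4 *F. ramosissima* libraries and under 100 TPM over the 4 *F. sonorensis* libraries, and had a ratio of these means of at least 8. The unit TPM divides the reads of a gene by its transcript length and scales each library to a common total, so levels can be set side by side between genes. These 73 rows are 0.557% of the 13103 rows above 0 in all 8 libraries, and the whole table held 23519 rows. Because the rule used the levels of both species, the differences between species are given as a description. A fit over the whole table includes these rows, but its calls for them follow from the rule and are no independent test.

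Newly expanded mature leaves were sampled from *F. ramosissima* and *F. sonorensis*, with 4 libraries each, and all plants came from a low CO2 condition. In the growth chamber, 16 h of light at 200 μmol m-2 s-1 alternated with 8 h of darkness, at 22 °C and 70% humidity. The labels give low CO2 as 100 μmol m-2 s-1, a unit of flux that is repeated here as stated. They also give 6 months, without saying whether this was the age of the plants or the time at low CO2, and no sample at another CO2 level was analysed here. They do not say whether the replicates were separate plants, so the spread between replicates may be technical in part.

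*Flaveria* is a genus of the daisy family in which C3, C4 and intermediate species occur. In the intermediates, glycine from photorespiration is decarboxylated in the bundle sheath, the cell layer around the leaf veins, where the released CO2 can be fixed again by Rubisco. *F. sonorensis* is known as an intermediate that relies on this glycine shuttle, whereas *F. ramosissima* also runs part of the C4 cycle. The rows carry a running number and no gene symbol in the sources used here, and none was placed in a pathway. No defining marker of leaf could be looked up for the same reason. In what follows, members are ordered by their mean TPM in *F. ramosissima* and are referred to by rank, and 2 of them are named by row number.

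Among rows measured in all 8 libraries, abundance in *F. ramosissima* was mostly accompanied by abundance in *F. sonorensis*. Of 856 such rows with at least 100 TPM in *F. ramosissima*, 618 also had at least 100 TPM in *F. sonorensis*. The remaining 238 rows were under 100 TPM in *F. sonorensis*, and these comprised the 73 members and 165 rows with a ratio under 8. The median member had 214 TPM in *F. ramosissima*, against 10.3 TPM in *F. sonorensis*. By mean abundance over all rows of the table, members ranked from 6 to 1109 in *F. ramosissima* and from 1418 to 14567 in *F. sonorensis*. In bulk leaf tissue, fewer cells of a type and less RNA per cell cannot be told apart.

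**Figure D1:**
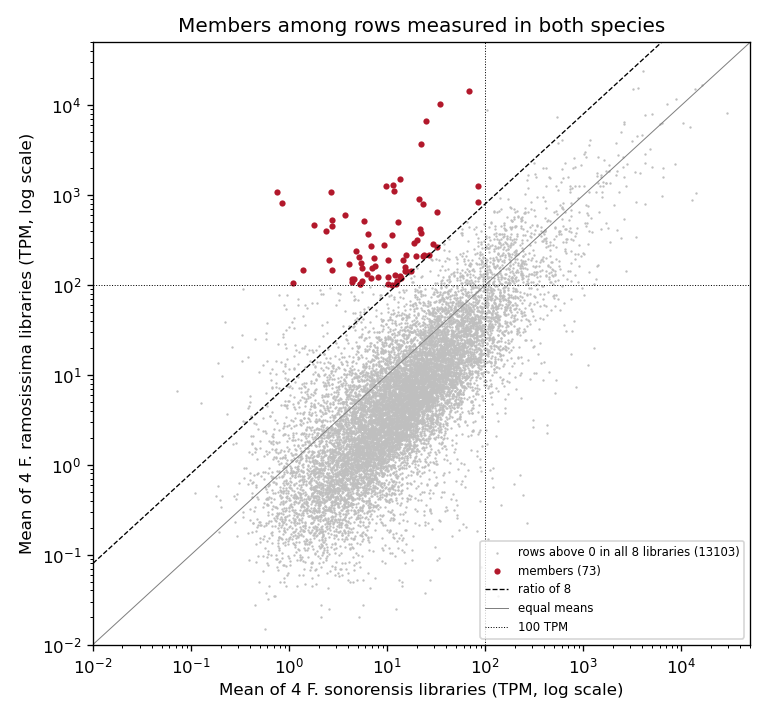
Mean TPM in *F. ramosissima* (vertical, log scale) against mean TPM in *F. sonorensis* (horizontal, log scale) for the 13103 rows above 0 in all 8 libraries (grey) and the 73 members (red). The members lie above the dashed line of ratio 8 and within the dotted limits of 100 TPM, and the most abundant of them reach 14362 TPM in *F. ramosissima*.

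The edges of the rule did not fall in a natural gap. The member with the lowest *F. ramosissima* mean had 100.2 TPM, and the nearest row outside had 98.5 TPM and a ratio of 10.6. The lowest ratio of a member was 8.17, and the nearest row outside had 7.89. The ceiling in *F. sonorensis* left out 2 rows. One of them averaged 8746 TPM in *F. ramosissima*, against 104 TPM in *F. sonorensis*, and the other 7367 TPM and 535 TPM in the same order. The member closest to this ceiling was rank 7, with 1278 TPM in *F. ramosissima*, against 84.7 TPM in *F. sonorensis*.

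The requirement of values above 0 left out most of the rows that met the other conditions. Without it, 327 rows passed, of which 243 were listed at 0 in all 4 *F. sonorensis* libraries and 11 were above 0 in 1 to 3 of them. The median abundance in *F. ramosissima* was 214 TPM for the members, 296 TPM for the 11 rows and 234 TPM for the 243 rows. The 11 rows had a median of 0.348 TPM in *F. sonorensis*, against 10.3 TPM for the members. Whether a 0 stands for an undetected transcript or for a gene missing from the sequences of that species was not tested.

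As a group, the members took up a large part of the *F. ramosissima* libraries. Their summed abundance was 61752, 57758, 65562 and 56628 TPM in the *F. ramosissima* libraries, by replicate number, against 1108, 1019, 1034 and 1051 TPM in the *F. sonorensis* libraries. The members thus held 6.67 ± 0.425% of the deposited TPM in *F. ramosissima*, against 0.122 ± 0.0058% for *F. sonorensis* (mean ± SD over 4 libraries each). The sum was highest in replicate 3 and lowest in replicate 4 of *F. ramosissima*, and it was more even among the *F. sonorensis* libraries. The whole columns summed to 901451 to 911412 TPM in *F. ramosissima* and to 849828 to 868947 TPM in *F. sonorensis*. The deposited columns thus did not share a common total, though these totals differed far less than the members did.

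Most of this abundance came from 4 members. They held 57.9 ± 2.66% of the summed TPM of the members in *F. ramosissima*, whereas the same 4 rows held 14.2 ± 0.705% for *F. sonorensis* (mean ± SD over 4 libraries each). Without them, the members summed to 24737 to 25925 TPM in the *F. ramosissima* libraries, or 2.74% to 2.86% of the TPM, against 877 to 955 TPM in the *F. sonorensis* libraries. The variation of the sum among *F. ramosissima* replicates was thus mainly in the 4 highest members. In *F. sonorensis*, the 4 highest members held 25.8% of the summed means, and 2 of these were also among the 4 highest in *F. ramosissima*.

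Gene17659 was the most abundant member in *F. ramosissima*, with 16260, 11405, 17099 and 12685 TPM in replicates 1 to 4. The *F. sonorensis* libraries had 72.95, 54.8, 67.2 and 77.1 TPM of this row. All *F. ramosissima* values lay above all *F. sonorensis* values, with replicates 1 and 3 of *F. ramosissima* well above replicates 2 and 4. The mean was 14362 ± 2748 TPM in *F. ramosissima*, against 68.0 ± 9.69 TPM for *F. sonorensis* (SD over 4 libraries each), a ratio of 211. The log2 difference, on the scale of log2(TPM + 1), was 7.69 with a standard error of 0.16. This row alone held 23.8% of the summed abundance of the members in *F. ramosissima*, and it was number 6 by mean abundance among all rows of that species.

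Gene23771 had the largest ratio of means. Its abundance was 1081, 930, 1185 and 1116 TPM in *F. ramosissima*, against 0.92, 0.46, 1.03 and 0.63 TPM in *F. sonorensis*. The ratio of means was 1418, and the lowest *F. ramosissima* library was 903 times the highest *F. sonorensis* library. TPM retains no depth, so the counting error of the low *F. sonorensis* values, and with it of this ratio, is unknown. On the log2(TPM + 1) scale the difference was 9.27 with a standard error of 0.14, which understates the change because the added 1 is larger than most *F. sonorensis* values of this row.

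The members of rank 2 to 4 resembled Gene17659 in that they were abundant in *F. ramosissima* and moderate in *F. sonorensis*. Rank 2 had 9853, 9919, 11634 and 9629 TPM in *F. ramosissima* and 35.0, 39.6, 33.1 and 29.9 TPM in *F. sonorensis*. Rank 3 had 6218, 7093, 7392 and 6085 TPM in *F. ramosissima* and 23.5, 24.8, 27.6 and 23.1 TPM in *F. sonorensis*. Rank 4 had 4120, 3416, 3878 and 3492 TPM in *F. ramosissima* and 21.1, 20.5, 29.6 and 18.2 TPM in *F. sonorensis*. Their ratios were 298, 271 and 167, and in each the lowest *F. ramosissima* library was 116 to 243 times the highest *F. sonorensis* library. Ranks 1 and 2 overlapped in *F. ramosissima*, whereas ranks 2, 3 and 4 were separated from each other and from rank 5 in all 4 libraries.

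Below these, the levels formed a continuous series. The 3 separations just given were the only ones among the 72 pairs of neighbouring ranks, and all other neighbours overlapped in their *F. ramosissima* values. There were 11 members with at least 1000 TPM in *F. ramosissima* and 41 with at least 200 TPM. Ranks further apart could be separated, as the lowest *F. ramosissima* value of rank 11 was 930 TPM and the highest of rank 20 was 646 TPM.

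**Figure D2:**
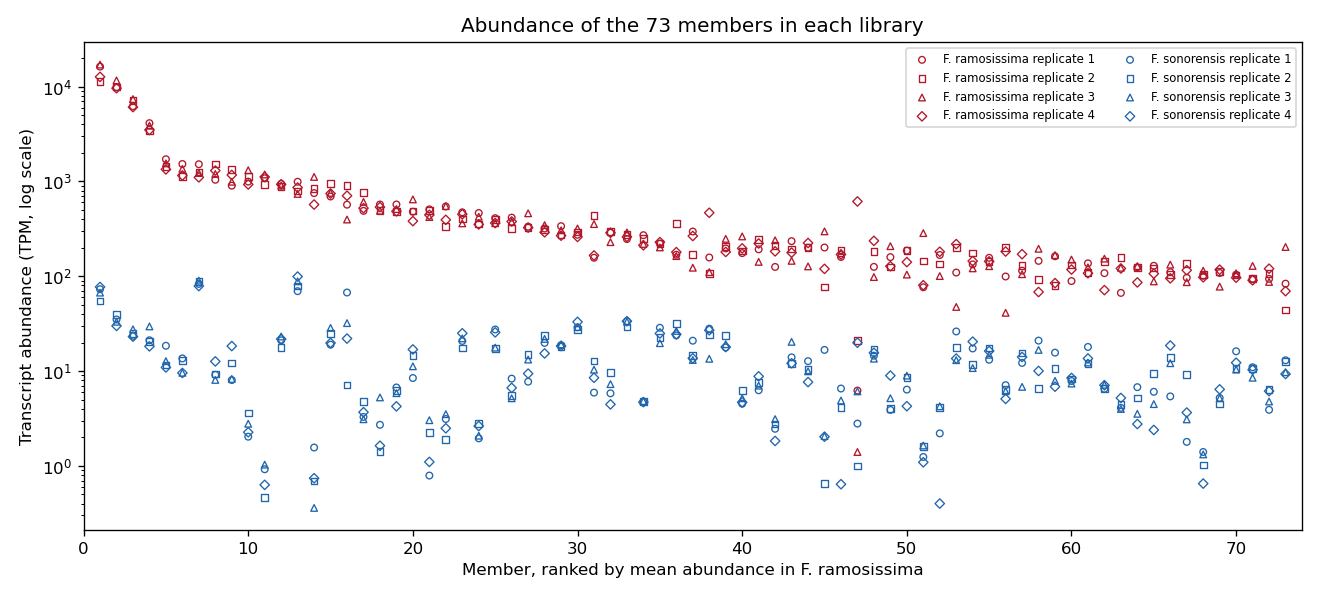
Abundance in TPM (vertical, log scale) of each of the 73 members (horizontal, ranked by mean in *F. ramosissima*) in the 4 libraries of *F. ramosissima* (red) and the 4 libraries of *F. sonorensis* (blue), with a marker shape for each replicate number. The 4 highest members stand clear of the others in *F. ramosissima*, the *F. sonorensis* values show no such step, and at rank 47 the colours overlap.

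The ratio of means varied widely among the members. Its median was 24.6, with quartiles of 12.0 and 89.2 and a range from 8.17 to 1418. All ratios are those of the TPM as deposited and depend on the scaling: trimmed-mean (TMM) factors averaged 0.361 times as large in *F. ramosissima* as in *F. sonorensis*, and scaling by them raised the median log2 difference of the members to 5.72, against 4.43 as deposited. At least 16 was reached by 48 members, at least 32 by 31 and at least 64 by 20. The 11 members with at least 1000 TPM in *F. ramosissima* had a median ratio of 167, the 30 members from 200 to 1000 TPM had 30.9, and the 32 members from 100 to 200 TPM had 18.9. The ratio shares its numerator with these classes, and the rule limits the *F. sonorensis* level, so this order is a description only. The median levels in *F. sonorensis* were 13.4, 14.2 and 7.24 TPM in the same order of classes. Across the 73 members the level in *F. ramosissima* was weakly related to that in *F. sonorensis* (Spearman's rho = 0.28 over 73 rows of the same libraries). Over the 783 other rows with at least 100 TPM in *F. ramosissima* it was 0.54, but the rule limits both levels of the members and the values are not comparable tests.

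The 6 members with the largest ratios differed in the level from which they departed. Ranks 2 and 3 are described above. Rank 10 had 996, 1133, 1314 and 929 TPM in *F. ramosissima* and 2.03, 3.60, 2.78 and 2.26 TPM in *F. sonorensis*. Rank 14 had 753, 842, 1117 and 571 TPM in *F. ramosissima* and 1.56, 0.69, 0.36 and 0.74 TPM in *F. sonorensis*, so that replicate 3 was the highest of *F. ramosissima* and the lowest of *F. sonorensis*. Rank 21 had 507, 493, 422 and 444 TPM in *F. ramosissima* and 0.79, 2.24, 3.03 and 1.10 TPM in *F. sonorensis*. Its *F. sonorensis* values spanned more than its *F. ramosissima* values in relative terms, so its ratio of 261 rests on an uncertain denominator. Gene23771 completes the 6.

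At the other end, several members had a clear level in *F. sonorensis*. Rank 7 had 1519, 1263, 1227 and 1105 TPM in *F. ramosissima* and 83.0, 87.4, 89.8 and 78.8 TPM in *F. sonorensis*. Rank 13 had 992, 793, 739 and 863 TPM in *F. ramosissima* and 69.6, 79.1, 88.4 and 99.2 TPM in *F. sonorensis*. Rank 33, with one of the smallest ratios at 8.28, had 247, 275, 290 and 260 TPM in *F. ramosissima* and 33.5, 29.2, 33.2 and 33.6 TPM in *F. sonorensis*. In these rows no values overlapped between species, and within a species the highest library was at most 1.43 times the lowest. In *F. sonorensis*, 17 members averaged under 5 TPM, 34 under 10 TPM, 56 under 20 TPM and 70 under 50 TPM. Only 2 averaged under 1 TPM, and 7 had at least 1 library under 1 TPM.

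The separation of the species was examined library by library. In 72 of the 73 members, all 4 *F. ramosissima* libraries were above all 4 *F. sonorensis* libraries, a pattern that 9.91% of the 13103 rows above 0 in all 8 libraries showed. The same 72 members were called higher in *F. ramosissima* by limma at a Benjamini-Hochberg adjusted p below 0.05, against 25.9% of the 16323 rows tested and 12.0% of those above 0 in all 8 libraries. Both counts follow from the rule, and nothing is read from them. The median log2 difference of the members was 4.43, and the standard errors ranged from 0.10 to 1.54 with a median of 0.20. The lowest *F. ramosissima* library exceeded the highest *F. sonorensis* library 12.8 times in the median member, and at least 8 times in 49 members. In the other 24 members this value was under 8, so their ratio of means was larger than that of their closest libraries.

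**Figure D3:**
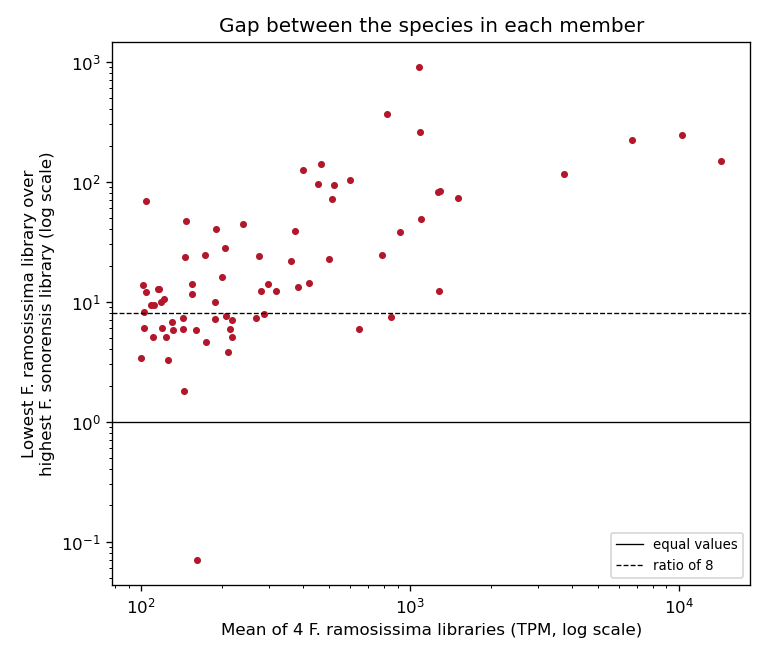
Lowest *F. ramosissima* library divided by the highest *F. sonorensis* library (vertical, log scale) against mean TPM in *F. ramosissima* (horizontal, log scale), with a point for each of the 73 members. The solid line marks equal values and the dashed line a ratio of 8, and 1 member, at 0.0704, lies below the solid line.

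The exception was the member of rank 47. Its *F. ramosissima* replicates 1 to 4 had 6.22, 21.1, 1.40 and 615 TPM, against 2.79, 1, 6.10 and 19.9 TPM for *F. sonorensis*. It met the rule through replicate 4 of *F. ramosissima* only, as the other 3 libraries lay in or near the range of *F. sonorensis*. Rank 38 showed a milder form, with 158, 107, 110 and 467 TPM in *F. ramosissima*, where replicate 4 was again far above the others, and 28.0, 24.0, 13.5 and 26.9 TPM in *F. sonorensis*. In rank 38 the species did not overlap.

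The rule was then applied again without each library in turn. All conditions were still met in every one of the 8 cases by 61 members, and 12 members failed in at least 1 case. The 12 ranked from 36 to 73 by *F. ramosissima* mean and had ratios of at most 24.6. Each set of rows chosen from 7 libraries was also read in the library it had not used. Among the 72 to 76 rows chosen without an *F. ramosissima* library, 64 to 67 reached 8 times the *F. sonorensis* mean in that library. The median ratio there was 22.1, 26.9, 19.0 and 22.3 for replicates 1 to 4. Without an *F. sonorensis* library, the *F. ramosissima* mean was at least 8 times the left-out library in 63 of 72, 70 of 75, 71 of 72 and 69 of 76 rows for replicates 1 to 4. Each left-out library was set against the mean of the other species, which had helped to choose these rows. The counts thus follow in part from the rule, and nothing is read from them.

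The replicate spread differed between the abundance classes of the members. The rule set no limit on spread, but a high library can lift a mean over a threshold. The spread of the members is therefore not independent of the rule. The median SD of log2(TPM + 1) over the 4 *F. ramosissima* libraries was 0.33 for the 32 members from 100 to 200 TPM, 0.19 for the 30 from 200 to 1000 TPM and 0.19 for the 11 above this. For the other rows with at least 100 TPM in *F. ramosissima*, the corresponding medians were 0.20, 0.20 and 0.15, over 360, 325 and 98 rows. In 16 members the highest *F. ramosissima* library was over 2 times the lowest, and 11 of these were in the class of 100 to 200 TPM. Over all 73 members the median SD was 0.24 in *F. ramosissima*, against 0.20 in the 783 other rows, and it was 0.22 in the 61 members that passed without any 1 library. Among these 61, the 22 members from 100 to 200 TPM had a median SD of 0.35.

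In *F. sonorensis*, the members were spread more widely around their low levels. The median SD of log2(TPM + 1) was 0.27 over the 73 members. Members with a mean under 5 TPM had a median SD of 0.27, equal to that of the 3063 other shared rows at that level. Members from 5 to 10 TPM had 0.27, against 0.19 in 2279 other rows, those from 10 to 20 TPM had 0.30, against 0.16 in 2578 rows, and those from 20 to 100 TPM had 0.21, against 0.15 in 3941 rows. These medians are a description over rows, which are not independent replicates, and the classes were chosen after the values were seen. Rank 16 was one of the widest cases, with 569, 913, 397 and 707 TPM in *F. ramosissima* and 67.4, 7.15, 32.04 and 22.0 TPM in *F. sonorensis*. Its highest library was replicate 2 of *F. ramosissima* and replicate 1 of *F. sonorensis*. Ranks 45 and 47 were wider in *F. sonorensis*, with SDs of 1.48 and 1.44, against 1.28 in rank 16.

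**Figure D4:**
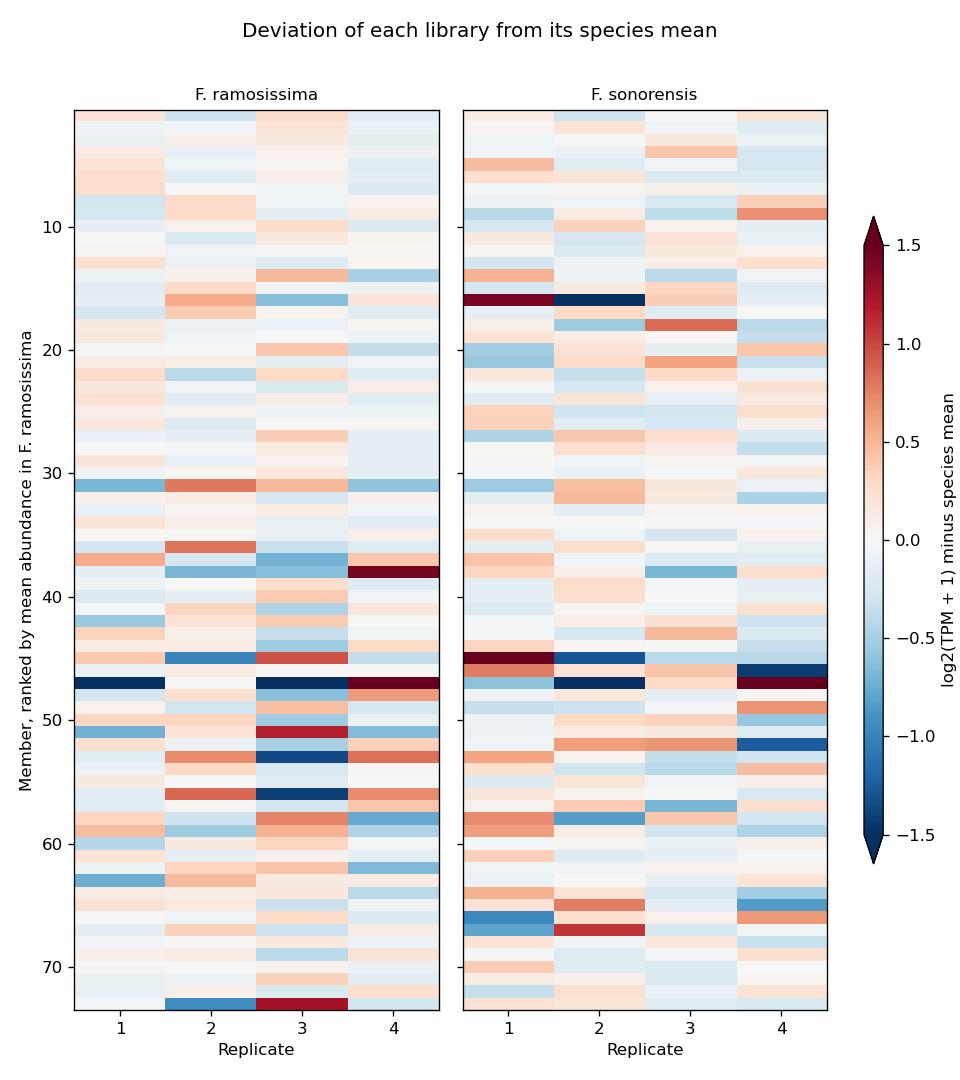
Deviation of each library from its species mean on the scale of log2(TPM + 1), with a row for each of the 73 members by rank, a column for each replicate, and *F. ramosissima* to the left of *F. sonorensis*. Colours are cut at 1.5 in either direction, and the deviations of *F. ramosissima* are strongest at rank 47, where replicate 4 is far above the mean.

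Among the *F. ramosissima* libraries, members most often took their extreme values in replicate 3. Replicate 3 was the highest library for 28 members and the lowest for 25, so 53 of 73 (72.6%) had an extreme there, against 61.9% of the 783 other abundant rows. Replicate 4 was the highest for 10 and the lowest for 23 members, replicate 1 for 20 and 12, and replicate 2 for 15 and 13. Among the 783 other rows, replicate 4 was the highest for 201 and the lowest for 206. Between replicates 3 and 4, 6 members were at least 2 times higher in replicate 3 and 6 were at least 2 times higher in replicate 4. Among the 783 other rows these counts were 6 and 43. On the log2 scale, the median deviation of the members was 0.04 in replicate 3 and -0.07 in replicate 4. It was close to 0 in the 783 other abundant rows, at 0.004 and -0.008, and it was -0.17 and 0.11 over all rows above 0 in all 8 libraries. The balance depends on scaling. With the TMM factors, replicate 3 was the highest for 45 members and the lowest for 11, and replicate 4 was the lowest for 41. What sets these libraries apart was not tested, as the labels give no difference between replicates.

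Some of the members with large changes between replicates are given here, and they showed several patterns. Ranks 45 and 58, where the highest *F. ramosissima* library was 3.86 and 2.86 times the lowest, are not listed. Rank 53 had 109, 202, 47.4 and 218 TPM in *F. ramosissima*, and rank 56 had 99.4, 202, 41.2 and 182 TPM, so both were lowest in replicate 3. Rank 51 had 76.5, 145, 285 and 80.4 TPM, and rank 73 had 83.5, 44.0, 204 and 69.6 TPM, so both were highest in replicate 3. Rank 31, with 157, 439, 355 and 166 TPM, separated replicates 2 and 3 from the others. In *F. sonorensis*, rank 53 had 26.2, 17.7, 13.0 and 13.6 TPM, rank 56 had 7.10, 6.42, 6.12 and 5.08 TPM, and rank 51 had 1.24, 1.60, 1.64 and 1.09 TPM. These members were chosen for their spread in *F. ramosissima*. Over all members, the SD of log2(TPM + 1) was larger in *F. ramosissima* than in *F. sonorensis* in 32 of 73.

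The position of the members in the row numbering was examined because the rule does not use it. What the numbering follows is not given in the sources used here. Members ran from number 219 to 33105, with a median gap of 297 between consecutive members. From number 19000 on there were 35 members (47.9%), against 41.1% of the rows above 0 in all 8 libraries and 46.9% of all rows. The median ratio was 29.8 for these 35 members and 19.0 for the 38 members below that number. The members thus came from the whole range of the table and not from 1 stretch of it.

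The rows next to a member in number were set beside neighbours in general. Of 146 possible neighbours, 88 were in the table, against 18607 of 26206 for the rows above 0 in all 8 libraries. None of the 88 was a member. Of these, 7 (7.95%) were listed at 0 throughout *F. ramosissima* and 24 (27.3%) throughout *F. sonorensis*. Next to the rows above 0 in all 8 libraries in general, these shares were 9.61% and 28.6%. Among the 55 neighbours above 0 in all 8 libraries, the median log2 ratio of *F. ramosissima* over *F. sonorensis* was -1.37, against -1.46 for neighbours of such rows in general, and 0 of the 55 had a ratio of at least 8, against 1.37% of such neighbours in general. The closest members were 3 numbers apart. The first of them, rank 17, had 489, 769, 608 and 523 TPM in *F. ramosissima* and 3.28, 4.76, 3.10 and 3.68 TPM in *F. sonorensis*. The second, rank 15, had 694, 958, 759 and 746 TPM in *F. ramosissima* and 19.0, 25.1, 28.5 and 19.8 TPM in *F. sonorensis*. Both were highest in replicate 2 and lowest in replicate 1 of *F. ramosissima*, and their levels in *F. sonorensis* did not overlap. No member shared its 4 values of either species with another row. Rows at 0 throughout a species were left aside for that species. Among the remaining rows of the table, 831 shared their *F. ramosissima* values with another row and 97 their *F. sonorensis* values. Such sharing was thus uncommon among rows with a value above 0, and a gene split over rows with unlike values would not be found this way.

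The mirrored rule, with *F. sonorensis* in place of *F. ramosissima*, was met by more rows. It chose 133 rows, against 73 members, in the TPM as deposited. The median ratio of the higher over the lower species was 24.6 for the members and 14.9 for the mirrored rows. The largest ratio went the other way, at 1418 for the members and 3876 for the mirrored rows. The highest mean in the higher species was 14362 TPM for the members and 1297 TPM for the mirrored rows, and the medians were 214 TPM and 172 TPM. The median SD of log2(TPM + 1) in the higher species was 0.24 for the members and 0.21 for the mirrored rows. These differences were not tested. Which direction held more rows turned with the scaling, since 226 rows met the rule and 26 the mirrored rule after TMM scaling. All 73 members were among the 226.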

How the data were processed

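Leaf RNA from 4 libraries of *F. ramosissima* and 4 of *F. sonorensis* was sequenced in paired-end mode, with reads of 150 bp per the labels. The authors deposited a single table in TPM. The submitters' processing notes name RSEM, without its role or version, while the aligner, the genome or transcript set and the matching of rows between species were not given in the sources used here. TPM retains no depth, so no count model or counting interval was used. Columns were assigned to samples by species and replicate number.

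The members and the lists were chosen with earlier results of these data known. Members were selected as described in the report. Species were compared by limma 3.58.1 in R 4.3.3 on log2(TPM + 1), keeping rows that averaged 1 TPM or more, with species as the only term, a mean-variance trend and Benjamini-Hochberg adjustment over all 16323 rows. Rows named were the member with the highest *F. ramosissima* mean and that with the largest ratio. The fit was tested on simulated data. Alternatives were other thresholds, pseudocounts, filters and scalings, moderation without trend, a replicate block and leaving out each library. Python 3.11.15, numpy 2.4.6, pandas 2.3.3 and matplotlib 3.10.9 were used.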

Additional observations from a re-analysis of the deposited data

Results flagged for a closer look

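For each member, the 4 values of a species were examined with Dixon's ratio, the gap between the most extreme library and its nearest neighbour divided by the whole range, at its critical value for groups of 4. Of 158 groups of 4 examined, 146 of them from members, 10 passed, all from members. Chance alone gives about 1 in 20, so the number that passed is near that rate, and the groups are listed as a description.

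In *F. ramosissima*, 8 groups passed. Replicate 3 stood apart in rank 2, with 11634 TPM against 9629 to 9919 TPM (gap 0.855), in rank 27, with 461 TPM against 326 to 333 TPM (0.945), in rank 71, with 128 TPM against 90.7 to 95.4 TPM (0.875), and on the low side in rank 32, with 229 TPM against 288 to 295 TPM (0.890). Replicate 4 stood apart in rank 47, with 615 TPM against 1.40 to 21.1 TPM (0.968), in rank 38, with 467 TPM against 107 to 158 TPM (0.859), and on the low side in rank 64, with 86.1 TPM against 124 to 128 TPM (0.899). Replicate 2 stood apart in rank 36, with 360 TPM against 163 to 180 TPM (0.916).

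In *F. sonorensis*, replicate 1 stood apart in rank 45, with 16.7 TPM against 0.65 to 2.06 TPM (0.912). Replicate 2 stood apart in rank 33, with 29.2 TPM against 33.2 to 33.6 TPM (0.913), a gap that is small in relative terms. Of these members, ranks 36, 38, 47 and 71 were also among the 12 that failed the rule without some library.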

How the results depend on the processing

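TPM carry no depth, so low *F. sonorensis* levels have an unknown counting error. The choice of members rests on thresholds and on the level at which libraries are set against each other. The 73 members became 226 rows after TMM scaling, whose factors average 0.361 times as large in *F. ramosissima* as in *F. sonorensis*, 48 with a ratio of 16 or more, 41 with 200 TPM or more in *F. ramosissima* and 327 with values of 0 allowed. Quantile normalization, rescaling over rows above 0 in all 8 libraries, a ratio of 4, a mean of 50 TPM, no ceiling and medians gave 69 to 109 rows. Leaving out each library gave 72 to 76 rows, including 68 to 73 of the members, and of the 73 the fewest were retained without replicate 4 of *F. ramosissima*.

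In every alternative fit by limma, 72 members were called higher in *F. ramosissima*, and the member of rank 47 was not. The share called over all tested rows ranged from 24.0% without replicate 4 of *F. ramosissima* to 49.1% after TMM scaling. The count of members called follows from the rule, and nothing is read from it. The median log2 difference of 4.43 moved to 4.67 and 3.86 with pseudocounts of 0.1 and 5, to 5.72 after TMM scaling and to 4.69 after quantile normalization. It was 4.36 to 4.54 without each library, and it was as reported with no filter, with one at 10 TPM and without a trend. The share of TPM held by the members in *F. ramosissima* was 6.67%, 8.30% with a denominator of rows above 0 in all 8 libraries, and 6.50% to 6.80% without each library. In *F. sonorensis* it was 0.119% to 0.124% without each library.

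The replicate numbers are shared by the species. Over the tested rows, deviations from the species mean correlated at 0.14, 0.14, 0.01 and 0.09 between libraries numbered 1 to 4, and at 0.18, 0.18, 0.02 and 0.11 over rows above 0 in all 8 libraries. In both sets, replicates 1, 2 and 4 of *F. ramosissima* correlated best with their own number and replicate 3 did not. Since not every pair was over 0.1 in either set, the numbers were not taken as pairs. With the replicate block, 72 members were called, against 26.1% of the 16323 rows tested, and the median log2 difference was 4.43.

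The mirrored rule gave 133 rows, 26 after TMM scaling, 98 after quantile normalization and 132 after rescaling over rows above 0 in all 8 libraries, settings added after the values were seen.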
